A study of Mus musculus with 40 samples.

Results

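C/EBPb peaks that stood alone were the C/EBPb binding sites that shared no base with a PU.1, SMARCA5 or CTCF peak. They were taken from the C/EBPb consensus peak list on chromosomes 1 to 19 and X, and there were 7479 of them, or 24.2% of the 30895 C/EBPb peaks on those chromosomes. The whole C/EBPb list held 30960 peaks. The sites were chosen by peak positions in the 4 lists, so their separation from the other proteins follows from the choice and is not a result. They are solitary among these 4 lists only, and a protein without a listed peak at a site may still bind there.

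C/EBPb is a leucine zipper transcription factor that acts in myeloid differentiation and in the inflammatory response of macrophages. It often binds beside PU.1, the ETS-family factor that defines the macrophage lineage, and the pair opens and holds many macrophage enhancers. SMARCA5 is the ATPase of ISWI complexes, which slide and space nucleosomes. CTCF binds DNA through zinc fingers and is found at insulators and at the anchors of chromatin loops.

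The material came from primary mouse bone marrow-derived macrophages. Smarca5 knockout cells carried floxed Smarca5 together with Csf1r-Cre, and wild-type cells carried Csf1r-Cre alone, as far as the labels say. Csf1r encodes the receptor for the macrophage growth factor CSF1, so its promoter directs Cre to the myeloid lineage. Both genotypes received 4-hydroxytamoxifen daily over 7 days of differentiation. The C/EBPb, PU.1 and CTCF experiments each had 2 knockout and 2 wild-type libraries from untreated cells. SMARCA5 was profiled after digestion with micrococcal nuclease in 8 libraries, namely 2 knockout libraries after 2 h of lipopolysaccharide at 10 ng/ml, 2 untreated knockout libraries, 2 wild-type libraries after the same lipopolysaccharide dose and time, and 2 untreated wild-type libraries. The H3K27ac libraries of the series were not analysed here.

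Each protein had 1 peak list for the whole series, with 67796 peaks for PU.1, 37071 for SMARCA5 and 25307 for CTCF. No value belonged to a library, so genotypes and stimuli could not be compared, loss of SMARCA5 in the knockout could not be checked, and the depth of each library is unknown. The SMARCA5 list may hold peaks from stimulated cells, while the C/EBPb list came from untreated cells. Peaks of a list are not replicates. The spread given below is therefore the quartile range over peaks, differences are descriptions with no test, and no p-value is given.

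The solitary C/EBPb sites were more often of middling strength than the other C/EBPb sites. Strength was read from the authors' fold enrichment, the ratio of signal over local background, and from the authors' −log10 q, which measures how improbable the signal is under that background. The solitary peaks had a median fold enrichment of 12.1 with quartiles of 9.42 and 15.7, against 11.5 with quartiles of 8.18 and 17.4 for the 23416 other C/EBPb peaks. The range was narrower on both sides, so the solitary sites held fewer of the weakest and fewer of the strongest C/EBPb peaks. Their 5th and 95th percentiles were 6.76 and 22.6, against 5.62 and 27.4 for the other peaks. By −log10 q the solitary peaks had a median of 44.9 with quartiles of 27.5 and 77.1, against 50.5 with quartiles of 24.95 and 130.1 for the other peaks. The upper end differed most, with 95th percentiles of 205.8 for solitary peaks and 529.1 for the other peaks. The highest −log10 q was 1253 among solitary peaks and 1.06e+06 among the other peaks, the latter at a peak that overlapped CTCF.

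The share of C/EBPb peaks that stood alone was highest in the middle of the list. With peaks ordered by fold enrichment, solitary ones made up 10.9% of the weakest decile, 34.1% of decile 6 and 10.8% of the strongest decile. Deciles 4 to 8 held 64.0% of all solitary peaks. They are 5 of the 10 deciles, which are of nearly equal size, and are the 5 with the highest solitary shares. The share exceeded the 24.2% of the whole list in deciles 3 to 8 only. C/EBPb peaks that overlapped both PU.1 and SMARCA5, without CTCF, showed the opposite shape, at 52.7% of decile 1, 29.9% of decile 6 and 54.0% of decile 10. With −log10 q as the order, 15.8% of decile 1, 33.7% of decile 5 and 7.06% of decile 10 stood alone. The deciles with the fewest solitary sites were thus the extremes, and by −log10 q the top one held the fewest.

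**Figure D1:**
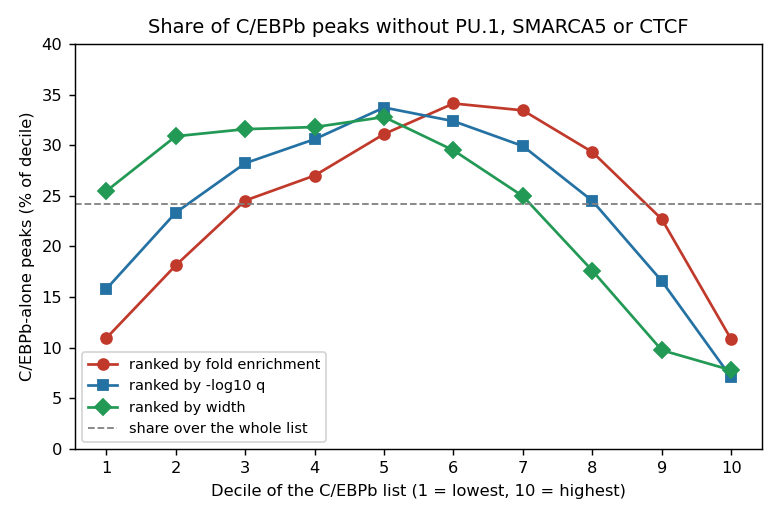
Share of C/EBPb peaks that overlapped no PU.1, SMARCA5 or CTCF peak, in percent, for each decile of the C/EBPb list ranked by the authors' fold enrichment, by −log10 q or by width. The dashed line is the share over the list, 24.2%. For fold enrichment the curve starts at 10.9%, peaks at 34.1% in decile 6 and ends at 10.8%.

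For comparison, 3 other classes of C/EBPb peaks without CTCF were used: 4434 with PU.1 and no SMARCA5, 4426 with SMARCA5 and no PU.1, and 12319 with both. The other 2237 C/EBPb peaks overlapped CTCF. Of the 11905 C/EBPb peaks that touched neither PU.1 nor CTCF, 62.8% were solitary and the rest touched SMARCA5. The solitary peaks had the lowest upper quartile of −log10 q of these classes, 77.1, against 107.1 with PU.1, 118.4 with SMARCA5 and 152.8 with both. Their median fold enrichment of 12.1 lay between 12.6 for the class with PU.1 and 10.97 for the class with SMARCA5. It was 11.5 for the class with both.

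Solitary peaks were narrow. Their median width was 412 bp with quartiles of 366 and 463 bp, against 448 bp with quartiles of 379 and 533 bp for the other C/EBPb peaks. The class medians were 429 bp with PU.1, 421 bp with SMARCA5 and 471 bp with both. Only 7.77% of the widest decile of the C/EBPb list stood alone, against 32.8% of decile 5. A wider peak has more chance of touching another peak, so width is partly tied to the way the sites were chosen. Within deciles of fold enrichment, the median width of solitary peaks was below that of the other peaks in 10 of 10 deciles, by an average of -22.2 bp weighted by solitary peaks. Against the class with PU.1 the same difference was -0.539 bp, and it was -12.1 bp against the class with SMARCA5 and -38.7 bp against the class with both. Within deciles of −log10 q the difference was -11.8 bp against all other peaks, but 6.08 bp against the class with SMARCA5, with solitary peaks wider in 7 of 10 deciles. The summit lay near the middle, at a median of 50.0% of the width from the start with quartiles of 46.2% and 53.7%. Those quartiles were 45.1% and 54.9% in the other peaks.

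The strongest solitary sites reached values close to the top of the whole list, where the highest fold enrichment was 35.5. The highest, on chromosome 12 from 32993913 to 32994455 of mm39, had a fold enrichment of 33.2 and a −log10 q of 1097 over 543 bp. It lay 197 bp from a PU.1 peak and 7958 bp from a SMARCA5 peak. The next site, on chromosome 5 from 102719226 to 102719787, also had a fold enrichment of 33.2, and lay 4841 bp from PU.1 and 4692 bp from SMARCA5. A site on chromosome 12 from 21476491 to 21477092 followed at 32.4, at distances of 8485 bp from PU.1 and 7497 bp from SMARCA5. Next was a site on chromosome 7 from 144769179 to 144769748 at 31.98, which lay 80 bp from a PU.1 peak and 665 bp from a CTCF peak. The last of these 5, on chromosome 3 from 19501827 to 19502402 at 31.9, was 1901 bp from SMARCA5 and 9032 bp from PU.1. Of these 5 sites, the first on chromosome 12 and the one on chromosome 7 were alone by a short gap only, and the other 3 lay several kb from PU.1.

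By −log10 q the leading solitary site was on chromosome 2 from 72877229 to 72877814, at 1253 with a fold enrichment of 29.3, and it lay 3404 bp from SMARCA5 and 4747 bp from PU.1. A site on chromosome 7 from 110623297 to 110623898 also ranked among the top 5, at 927.3, with PU.1 at 1843 bp and SMARCA5 at 1867 bp. The other 3 of the leading 5 by −log10 q were the sites on chromosomes 3 and 12 already named. Width set apart another few sites. The widest solitary peak, 1384 bp on chromosome 13 from 13928565 to 13929948, was weak, with a fold enrichment of 5.59 and a −log10 q of 8.02. The second, on chromosome 13 from 60828741 to 60829978, spanned 1238 bp and lay 903 bp from another solitary peak. The third, on chromosome 3 from 3000488 to 3001693, spanned 1206 bp at a fold enrichment of 10.03. Great width and great strength thus did not go together at these 3 sites, although the rank correlation of fold enrichment with width over all 7479 solitary peaks was 0.518.

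At a similar −log10 q, solitary sites had a higher fold enrichment than other C/EBPb sites. The median of solitary peaks was the higher one in 10 of 10 deciles of −log10 q, and the weighted difference was 1.10. In decile 6 the solitary median was 13.9 with quartiles of 12.3 and 14.9, against 12.7 with quartiles of 10.5 and 14.3 for the other peaks. The difference went with the class. Against C/EBPb peaks with SMARCA5 it was 2.03 and against those with both proteins 1.36, with solitary peaks higher in 10 of 10 deciles each time. Against peaks with PU.1 alone it was -0.145, with solitary peaks higher in 5 of 10 deciles. The solitary and the PU.1-bearing sites, both outside SMARCA5 peaks, thus lay close together on this measure, and both classes inside SMARCA5 peaks lay below them. This comparison was chosen after the values had been seen.

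**Figure D2:**
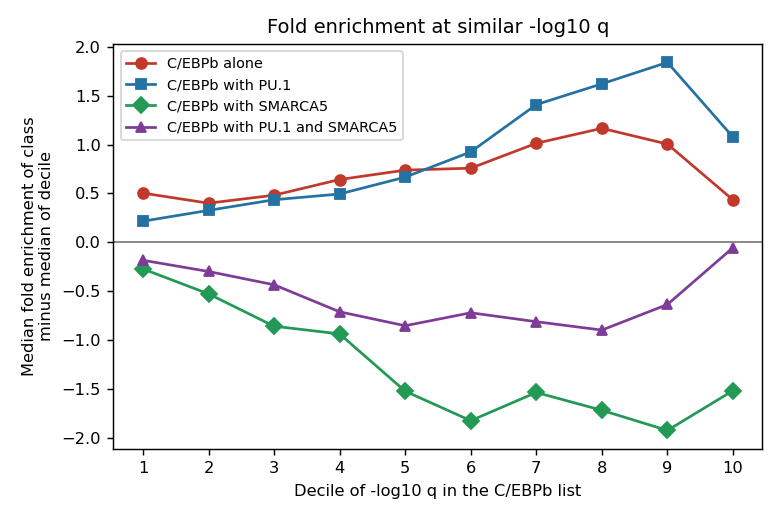
Median fold enrichment of each class of C/EBPb peaks minus the median over all C/EBPb peaks of the same decile of −log10 q, for solitary peaks, peaks with PU.1, peaks with SMARCA5 and peaks with both, none of them with CTCF except in the medians over all peaks. In all 10 deciles, solitary peaks and peaks with PU.1 lie above 0, and peaks with SMARCA5 or with both lie below 0.

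Fold enrichment also went with the distance to the next C/EBPb peak, with a change at 5 kb. Solitary peaks whose nearest other C/EBPb summit lay 2.5 to 5 kb away had a median fold enrichment of 9.71 with quartiles of 7.58 and 12.4, and those with one at 5 to 7.5 kb had 12.2 with quartiles of 9.64 and 15.6. The −log10 q moved the other way, with medians of 53.5 and 46.7. On either side of that change the values were nearly flat, at 9.74 for neighbours up to 2.5 kb and 12.3 for neighbours at 7.5 to 10 kb. The number of neighbours changed at the same place. Around solitary summits there were 2.09 other C/EBPb peaks per 100 kb at 4.5 to 5 kb and 3.25 at 5 to 5.5 kb, a ratio of 1.56 of the outer to the inner bin. PU.1 peaks around solitary summits numbered 6.31 and 6.28 per 100 kb in the same bins, a ratio of 0.996. Around the other C/EBPb summits both lists had more peaks in the outer bin, with 2.46 and 3.96 C/EBPb peaks and 6.22 and 8.11 PU.1 peaks per 100 kb at 4.5 to 5 kb and at 5 to 5.5 kb. At 2 to 5 kb and at 5 to 10 kb, PU.1 peaks numbered 3.83 and 7.11 per 100 kb around the class with PU.1. They numbered 5.97 and 8.57 around the class with both, and 11.1 and 8.79 around the class with SMARCA5 and no PU.1. The rise of PU.1 peaks was thus seen around C/EBPb peaks that overlapped a PU.1 peak themselves, and not around solitary peaks or the class with SMARCA5.

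A C/EBPb summit within 5 kb was found for 1125 solitary peaks, or 15.0%, against 25.7% of the other C/EBPb peaks, 13.7% of the class with PU.1, 38.9% of the class with SMARCA5 and 26.4% of the class with both. Solitary peaks with such a neighbour had a median fold enrichment of 9.72 and those without one 12.6. Within deciles of −log10 q, peaks with such a neighbour had the lower median in 10 of 10. Among peaks with no neighbour within 5 kb, the medians were 12.6 for solitary peaks and 12.6 for all other C/EBPb peaks. The excess of solitary peaks at similar −log10 q was then 0.617 over all other peaks, against 1.10 without this limit. It was 1.16 over the class with SMARCA5, 0.878 over the class with both and -0.111 over the class with PU.1. Fold enrichment is a ratio to a local background, and neighbouring peaks can enter that background. The window used by the authors is not given in the sources used here, and its part in the change at 5 kb was not tested.

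**Figure D3:**
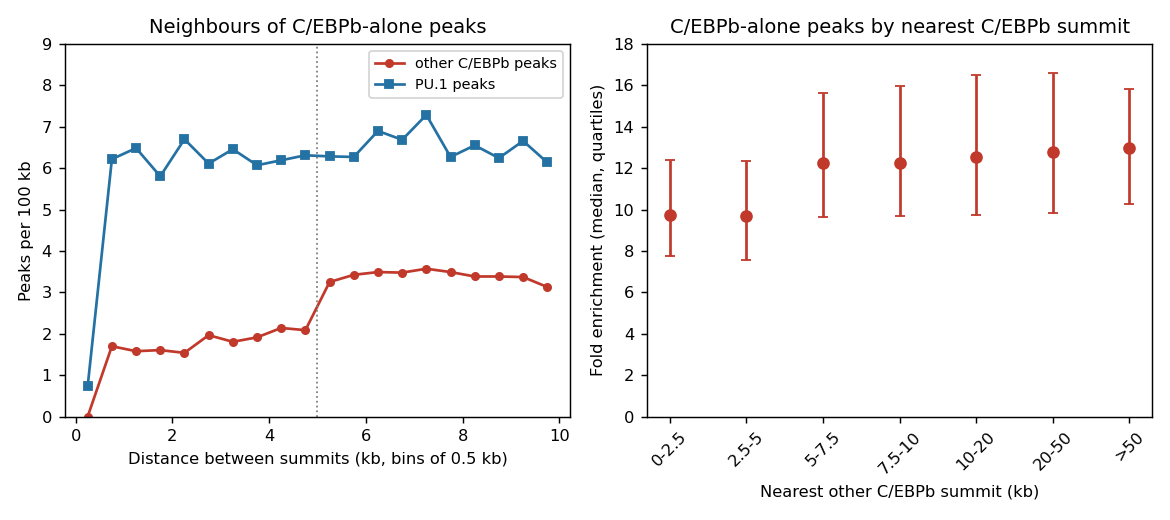
Left, number of other C/EBPb peaks and of PU.1 peaks per 100 kb by distance from the summits of solitary C/EBPb peaks, in bins of 0.5 kb, with a dotted line at 5 kb. Right, median fold enrichment of solitary peaks with quartiles, by distance to the nearest other C/EBPb summit. Just inside 5 kb there were 2.09 C/EBPb and 6.31 PU.1 peaks per 100 kb, and just outside 3.25 and 6.28.

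Most solitary sites lay near PU.1 peaks without touching them. The median distance to the nearest PU.1 peak, edge to edge, was 5359 bp with quartiles of 2154 and 12070 bp. A PU.1 peak lay within 1 kb of 12.3% of solitary sites, within 10 kb of 69.8% and within 50 kb of 7107 of the 7479 sites. SMARCA5 peaks were farther away. The median distance to SMARCA5 was 10881 bp with quartiles of 4243.5 and 28517 bp, and the shares within 1, 10 and 50 kb were 5.51%, 47.7% and 85.3%. For CTCF the median was 22792 bp with quartiles of 8843 and 55743.5 bp. The PU.1 list is the longest of the 4, and longer lists lie closer to any site.

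The nearest peak of any list was a PU.1 peak for 44.8% of solitary sites, a SMARCA5 peak for 32.5%, a CTCF peak for 13.2% and another C/EBPb peak for 9.43%. The remaining 4 sites were tied between lists. The PU.1 peaks nearest to solitary sites, 6915 in all, had a median fold enrichment of 11.8 in the PU.1 list, against 11.3 for all PU.1 peaks. SMARCA5 overlapped 36.9% of them, against 49.5% of all PU.1 peaks, and C/EBPb overlapped 21.5%, against 26.8% of all PU.1 peaks. Both shares were lower for the PU.1 peaks beside solitary C/EBPb sites than over the PU.1 list. Solitary sites lie outside every SMARCA5 peak, so a PU.1 peak right beside such a site is less free to lie in a SMARCA5 peak. How much of the lower SMARCA5 share this covers was not tested. A nearby PU.1 peak with C/EBPb also needs a second C/EBPb peak close by. Such peaks numbered 1.91 per 100 kb at 2 to 5 kb from solitary summits and 3.40 at 5 to 10 kb. The difference was not tested. The 6201 nearest SMARCA5 peaks were like the rest of their list, with a median width of 2535 bp against 2553 bp, PU.1 in 75.1% against 72.6%, C/EBPb in 43.98% against 44.4% and CTCF in 24.4% against 25.5%.

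**Figure D4:**
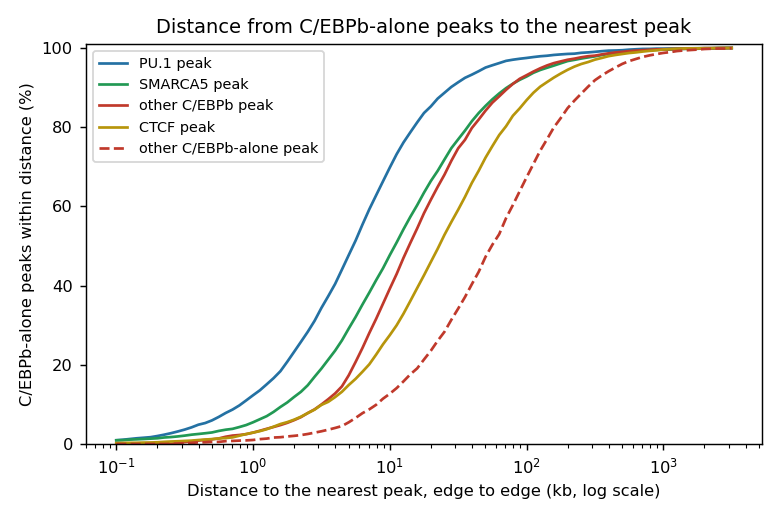
Share of solitary C/EBPb peaks, in percent, with a peak of each list within a given distance, edge to edge in kb on a log scale. PU.1 peaks were the closest, within 10 kb for 69.8% of solitary peaks, against 47.7% for SMARCA5, 39.2% for other C/EBPb peaks, 27.5% for CTCF and 12.7% for other solitary peaks.

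The classes could also be set side by side by the nearest PU.1 or SMARCA5 peak that did not overlap the C/EBPb peak itself. For PU.1 this median was 5359 bp for solitary sites, against 7128.5 bp for sites with PU.1, 1379.5 bp for sites with SMARCA5 and 4792 bp for sites with both. For SMARCA5 it was 10881 bp for solitary sites, against 11381 bp for sites with PU.1, 6032 bp for sites with SMARCA5 and 6986 bp for sites with both. Solitary sites and sites with PU.1 thus lay at similar distances from SMARCA5 peaks, and both lay farther than the classes inside SMARCA5 peaks. For sites inside a SMARCA5 peak the next one begins beyond its edges, so part of these distances is fixed by how the classes were made. The PU.1 distances are not fully even either. PU.1 peaks per 100 kb at 2 to 5 kb and at 5 to 10 kb numbered 3.83 and 7.11 around sites with PU.1. They numbered 5.97 and 8.57 around sites with both, and 6.31 and 6.53 around solitary sites. How far this bears on the PU.1 distances was not tested.

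Counts of peaks at greater distances gave a further view. At 5 to 10 kb from the summit there were 6.53 PU.1 peaks per 100 kb around solitary sites, against 7.11 around sites with PU.1, 8.79 around sites with SMARCA5 and 8.57 around sites with both. At 50 to 100 kb the counts were 5.53 around solitary sites, against 5.81 with PU.1, 6.30 with SMARCA5 and 6.18 with both. At 200 to 500 kb they were 4.30 around solitary sites, against 4.48 with PU.1, 4.37 with SMARCA5 and 4.40 with both. Solitary sites had the lowest count of the 4 classes in each of these ranges. SMARCA5 peaks numbered 3.71 per 100 kb at 5 to 10 kb around solitary sites, against 3.75 with PU.1, 5.87 with SMARCA5 and 5.47 with both. At 200 to 500 kb the SMARCA5 counts were 2.31 around solitary sites, against 2.41, 2.37 and 2.38 around the classes with PU.1, with SMARCA5 and with both. At 5 to 10 kb solitary sites thus lay close to the class with PU.1 in SMARCA5 counts, and well below both classes inside SMARCA5 peaks. Closer in, at 2 to 5 kb, the order differed. There were 6.31 PU.1 peaks per 100 kb around solitary sites, against 3.83 with PU.1, 11.1 with SMARCA5 and 5.97 with both, and 3.06 SMARCA5 peaks around solitary sites, against 2.195 with PU.1, 6.80 with SMARCA5 and 5.03 with both. Solitary sites thus had more PU.1 and SMARCA5 peaks at 2 to 5 kb than the class with PU.1. Every site of that class already overlaps a PU.1 peak itself. Whether that bears on the PU.1 counts of the class at 2 to 5 kb was not tested. The PU.1 count of that class changed from 3.83 at 2 to 5 kb to 7.11 at 5 to 10 kb, while that of solitary sites was 6.31 and 6.53.

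**Figure D5:**
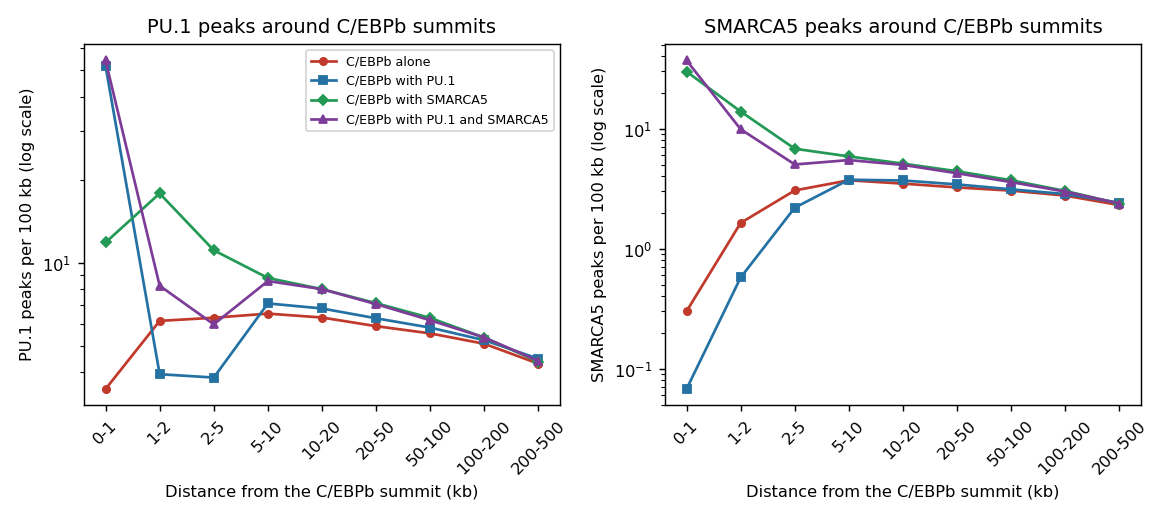
PU.1 peaks (left) and SMARCA5 peaks (right) per 100 kb, on a log scale, by distance of their summits or centres from the C/EBPb summit, for solitary C/EBPb peaks, peaks with PU.1, peaks with SMARCA5 and peaks with both. At 200 to 500 kb the PU.1 counts of the 4 classes lie between 4.30 and 4.48. Values closest to the summit depend in part on how the classes were made. Around solitary summits, PU.1 peaks numbered 0.735 per 100 kb within 0.5 kb and 6.22 at 0.5 to 1 kb.

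Fold enrichment varied little with distance from PU.1, while −log10 q was lower at greater distances. The 922 solitary sites within 1 kb of a PU.1 peak had a median fold enrichment of 11.9 with quartiles of 9.10 and 15.8, and the 914 sites at 20 to 100 kb had 12.9 with quartiles of 10.1 and 16.2. The −log10 q had medians of 53.4 within 1 kb, 48.3 at 1 to 5 kb, 42.3 at 5 to 20 kb, 40.9 at 20 to 100 kb and 34.5 for the 189 sites beyond 100 kb. By distance from SMARCA5 the median fold enrichment was 10.3 with quartiles of 8.34 and 13.2 for the 412 sites within 1 kb, 11.6 at 1 to 5 kb, 12.3 at 5 to 20 kb and 12.7 at 20 to 100 kb. Sites next to a SMARCA5 peak thus had the lowest fold enrichment of these groups, by less than the quartile range within a group.

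The sites closest to the limit of the choice had similar widths on both sides of it, while median fold enrichment and −log10 q were higher on the solitary side. Solitary peaks with a peak of another list fewer than 50 bases away numbered 90, with a median fold enrichment of 11.2, −log10 q of 53.9 and width of 404.5 bp. C/EBPb peaks that shared at most 50 bases with any such peak numbered 78, with 10.1, 46.1 and 401 bp. A site on chromosome 7 from 105593136 to 105593510 abutted a PU.1 peak with no base between them, and one on chromosome 4 from 59877033 to 59877554 abutted a SMARCA5 peak in the same way. A gap of 1 bp to PU.1 was found on chromosome 11 from 72698364 to 72698838, and again on chromosome 7 from 143266383 to 143266683. The same gap to SMARCA5 was found on chromosome 14 from 63081266 to 63081685, and again on chromosome 17 from 73271098 to 73271453.

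At the other end were sites far from PU.1 or SMARCA5. The site farthest from PU.1, on chromosome 1 from 112379356 to 112379718, lay 2.86 Mb from the nearest PU.1 peak and had a fold enrichment of 8.34. The wide peak on chromosome 3 from 3000488 to 3001693 came next at 2.52 Mb, followed by a peak on chromosome 15 from 17404743 to 17405144 at 2270543 bp, with a fold enrichment of 15.0. The site farthest from SMARCA5 was on chromosome X from 81248222 to 81248579, at 3.37 Mb, with a fold enrichment of 13.7. A peak on chromosome 14 from 83235586 to 83235932 lay 2.85 Mb from SMARCA5 but 79.9 kb from PU.1, and one on chromosome 6 from 77600644 to 77601072 lay 2.66 Mb from SMARCA5 and 287.8 kb from PU.1. The −log10 q of these 6 sites lay between 15.9 and 46.3, and that of the site on chromosome 15 alone exceeded the solitary median of 44.9.

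The spacing of solitary sites was wide, as that of any subset of the list must be. The nearest other solitary site lay at a median of 55652 bp with quartiles of 21305 and 130660 bp, whereas the nearest other C/EBPb peak of any kind lay at 13794 bp with quartiles of 6455 and 32122.5 bp. For the other C/EBPb peaks the nearest C/EBPb peak lay at a median of 9470 bp. The nearest C/EBPb peak was itself solitary for 27.9% of solitary sites, against 29.4% of sites with PU.1, 15.3% of sites with SMARCA5 and 19.3% of sites with both. The share of solitary peaks in the list, 24.2%, lies between these values. The share for solitary sites thus lay closest to that of the class with PU.1.

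Where neighbouring solitary sites within 20 kb of each other were joined, 1767 sites, or 23.6%, fell into 815 groups of 2 or more. Joined in the same way within their own class, 17.3% of sites with PU.1, 27.5% of sites with SMARCA5 and 49.7% of sites with both were grouped, but these classes differ in number. Groups of 3 or more solitary sites numbered 105, and those of 4 or more 28. The largest group, with 6 solitary sites on chromosome 1 from 152557512 to 152597033, spanned 39.5 kb and held 6 C/EBPb peaks in all, 4 PU.1 peaks and 0 SMARCA5 or CTCF peaks. Fold enrichment there lay between 7.94 and 14.1. A group of 5 on chromosome 17 from 15198006 to 15239780 also held 0 SMARCA5 and 0 CTCF peaks, with 7 C/EBPb and 6 PU.1 peaks, and fold enrichment between 12.6 and 17.2. Another group of 5, on chromosome 2 from 72100129 to 72139813, held 6 C/EBPb, 3 PU.1, 2 SMARCA5 and 2 CTCF peaks. Each of these 3 groups thus also held PU.1 peaks, and the group on chromosome 2 alone held SMARCA5 and CTCF peaks.

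Every chromosome held solitary sites in similar proportion. They made up between 20.9% of C/EBPb peaks on chromosome 7 and 26.6% on chromosome 15 among autosomes, and 29.3% on chromosome X, where 195 of 666 C/EBPb peaks stood alone. Per 10 Mb of the stretch between the first and last peak, there were 12.0 solitary sites on chromosome X, against 25.3 on chromosome 4 and 40.9 on chromosome 19, the lowest and highest autosomes. Chromosome X was also low in PU.1 peaks, with 96.3 per 10 Mb, and chromosome 19 held 364.2. The median fold enrichment of solitary peaks varied between 11.7 on chromosome 7 and 12.8 on chromosome X, and it exceeded the median of the other C/EBPb peaks on 18 of 20 chromosomes. The exceptions were chromosomes 1 and X.

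The deposited score of a peak, about proportional to its −log10 q, could have a decimal part of 0.25 or 0.75. Such decimals were found for 1585 solitary peaks, or 21.2%, against 37.2% of the other C/EBPb peaks. The share was 33.4% with PU.1, 33.8% with SMARCA5 and 40.3% with both. Within deciles of fold enrichment the share was lower for solitary peaks in 10 of 10 deciles, by a weighted -17.98 percentage points. It was 5.33% against 17.0% in the weakest decile, 19.6% against 41.8% in decile 6 and 49.4% against 49.6% in the strongest. Within deciles of −log10 q the share was lower for solitary peaks in 9 of 10, by a weighted -15.9 percentage points. In the top decile of −log10 q it was 51.4% for solitary peaks against 49.3%. The strongest solitary sites thus had these decimals about as often as the other strong C/EBPb sites. What these decimals stem from was not tested.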

How the data were processed

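The authors used MACS2 2.2.7.1, deepTools 3.5.1, Picard 2.27.4 and STAR 2.7.9a with the mm39 build, per the submitters' processing notes. What each tool did, and how libraries were merged into 1 list, is not given in the sources used here. The authors deposited, per peak, a score, a fold enrichment (a ratio over local background) and a −log10 q value, plus the summit position for narrow peaks. Columns that belonged to a sample numbered 0. Starts were read as counted from 0, as the peak format defines, and are printed counted from 1.

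Overlaps of at least 1 base and edge-to-edge distances were computed with pandas 2.3.3 and NumPy 2.4.6 under Python 3.11.15, using SciPy 1.17.1 for intervals of medians and matplotlib 3.10.9 for plots, and were checked on simulated data. SMARCA5 peaks have no summit, so their centres were used. Comparisons at similar strength took medians within 10 deciles, weighted by solitary peaks. Named sites are the 5 highest by fold enrichment and by −log10 q, the 3 widest, the 3 farthest from and nearest to PU.1 and SMARCA5, and the 3 largest groups. The members and comparisons were chosen with earlier results of these data known. The gene and promoter tables at hand are on GRCm38.p6, so nearest genes and sequences were not analysed here.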

Additional observations from a re-analysis of the deposited data

How the results depend on the processing

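Medians were compared with the exact 95% binomial interval of the median over peaks, and counts within 1.5 times. That interval served as a yardstick only. It treats peaks as independent, which they are not, and the alternative sets share many peaks, so it does not measure the uncertainty of a change. In the order 50% overlap of the shorter peak, summit rule, 1 kb of free sequence, SMARCA5 peaks over 5 kb left out, upper 50% of the other lists, upper 50% of the C/EBPb list by fold enrichment and by −log10 q, the median distance between solitary peaks was 51392, 49825, 73365, 42752, 20216, 116524 and 115470 bp. In the same order the distance to PU.1 was 5021, 4862, 6697, 4252, 8339, 5967.5 and 4552 bp, and that to SMARCA5 10299.5, 10273, 12105, 11972, 23201, 12503 and 10095.5 bp. Measured between summits or centres these 2 distances were 5846 and 12530 bp. The number of solitary peaks was 15321 with the upper 50% of the other lists, and 4028 and 3412 in the upper 50% of the C/EBPb list by fold enrichment and by −log10 q. Fewer peaks in a list leave more C/EBPb peaks alone and lie farther apart, by construction. Median fold enrichment was 11.9 when SMARCA5 peaks over 5 kb were left out, 11.8 with the upper 50% of the other lists and 16.1 in the upper 50% by −log10 q. Median −log10 q was 43.7 with 1 kb of free sequence, 46.2 when SMARCA5 peaks over 5 kb were left out, 48.9 with the upper 50% of the other lists and 70.9 in the upper 50% by fold enrichment. Median width was 415 bp under the summit rule, 422 bp with the upper 50% of the other lists, and 439.5 and 445 bp in the upper 50% of the C/EBPb list by fold enrichment and by −log10 q. On autosomes only, all 8 results stayed within their limits. The fold enrichment excess at similar −log10 q, whose alternatives were chosen after seeing the data, was 0.617 without and 0.6995 with another C/EBPb summit within 5 kb, and 1.05 to 1.32 under the other 6 alternatives. Depth is unknown, which limits what absence from a list can show. No paired analysis was possible because each protein has a single list without library columns. Where no construction is named, the cause was not tested.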

Other observations

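A small set of solitary C/EBPb sites lay far from the peaks of the other 3 lists. Of the 7479 solitary sites, 131, or 1.75%, lay more than 100 kb from every PU.1, SMARCA5 and CTCF peak, and 119 of them also lay more than 100 kb from any other C/EBPb peak. The 131 sites had a median fold enrichment of 12.06, close to the 12.13 of all solitary sites. Their median −log10 q was 33.8, against 44.9, and their median width 384 bp, against 412 bp. Chromosome 4 held 15 of the 131 and 388 of all 7479 solitary sites, and chromosome 2 held 11 of the 131 and 568 of all. Scores with a decimal part of 0.25 or 0.75 were found for 17.6% of them, against 21.2% of all solitary sites. This set was defined after the values had been seen.

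C/EBPb peaks outside chromosomes 1 to 19 and X numbered 65, of which 8 overlapped no peak of another list. Chromosome Y held 32 of the 65 and 4 of the 8. They were not counted among the solitary sites.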
